A study of Mus musculus with 8 samples.

Results

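The genes described here make cholesterol, sense it or move it out of the cell. They are 27 mouse genes taken from a fixed list of symbols, 17 enzymes of cholesterol synthesis and 10 genes of sterol regulation, efflux and transfer. Of the 27, 26 were found among the 24675 rows of the array table that carry 1 gene symbol, and Nr1h2, the beta form of the liver X receptor, was not analysed here. Expression was measured in ventral aortic tissue, dissected from under the dorsal aorta, and in dorsal aortic tissue, dissected between the aorta and the notochord. All embryos were of the C57Bl/6 strain at embryonic day 12.5 and carried no treatment or engineered allele named in the labels. Mouse Gene 2.0 ST arrays from Affymetrix were used, 4 for each tissue and 8 in total, numbered 1 to 4 as biological replicates, and both tissues came from the same embryos. The labels do not say how many embryos a number stands for or that number 1 is the same embryo in both tissues. The series asks what the tissue under the aorta, a niche of blood stem cells, expresses, and the comparison here is ventral minus dorsal on the log2 scale.

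Cells build cholesterol from acetyl units through mevalonate, squalene and lanosterol. When membrane sterol is low, the escort protein Scap carries the transcription factors SREBP-1 and SREBP-2 (genes Srebf1 and Srebf2) to the Golgi, where they are cut and released to switch on the enzymes of synthesis. When sterol is high, Insig proteins hold Scap back, and oxysterols activate liver X receptors, which induce the exporters Abca1 and Abcg1. Embryonic tissues make much of their own cholesterol, and cholesterol is attached to Hedgehog ligands, which the notochord releases.

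Promoter sequences are shown first, because many of these genes share promoter elements through which SREBP acts together with the factors NF-Y and Sp1. The sequences are those of RefSeq on build GRCm38.p6, from 250 bases before to 50 bases after each gene start, and 21 of the 26 genes had an entry, with 30 promoters between them because a gene can have several starts. A gene is counted as holding a motif where any of its promoters does. The motifs searched on both strands were the core of the sterol response element (TCACCCCAC), the NF-Y box (CCAAT) and the Sp1 box (GGGCGG). A looser SREBP motif (TCACNCCAC), which contains the core as a special case, was searched too. Whole windows are given for Hmgcs1, the first enzyme of the list, for Srebf2 and for Insig1. Capitals mark every match of these motifs on either strand.
Hmgcs1, chr13:119690101-119690400, plus strand: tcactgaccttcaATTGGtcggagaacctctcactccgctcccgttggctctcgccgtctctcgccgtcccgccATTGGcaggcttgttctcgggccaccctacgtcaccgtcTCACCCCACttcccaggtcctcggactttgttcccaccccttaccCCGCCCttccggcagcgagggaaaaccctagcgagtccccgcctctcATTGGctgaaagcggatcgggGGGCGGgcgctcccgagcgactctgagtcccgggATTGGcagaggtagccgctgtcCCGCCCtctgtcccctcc
Srebf2, chr15:82147019-82147318, plus strand: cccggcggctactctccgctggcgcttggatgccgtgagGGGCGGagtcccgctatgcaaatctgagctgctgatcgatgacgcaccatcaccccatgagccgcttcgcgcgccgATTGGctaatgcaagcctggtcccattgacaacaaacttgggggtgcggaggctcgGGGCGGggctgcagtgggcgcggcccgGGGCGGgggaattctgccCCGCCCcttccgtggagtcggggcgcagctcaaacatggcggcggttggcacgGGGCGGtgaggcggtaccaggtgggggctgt
Insig1, chr5:28071162-28071461, plus strand: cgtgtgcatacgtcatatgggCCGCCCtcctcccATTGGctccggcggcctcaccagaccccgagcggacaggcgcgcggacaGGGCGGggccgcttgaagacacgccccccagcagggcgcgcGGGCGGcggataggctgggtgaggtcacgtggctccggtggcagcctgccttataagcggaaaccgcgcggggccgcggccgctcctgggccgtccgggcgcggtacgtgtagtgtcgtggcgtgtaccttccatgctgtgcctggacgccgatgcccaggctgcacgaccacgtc

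The sterol response core lay in 1 of the 21 genes and 1 of their 30 promoters, that of Hmgcs1, with its first base at position -137, counting from 0 at the start, and the looser motif matched nowhere else in these windows. The core was held by 0.551% of all 32851 promoters and the looser motif by 1.24%. The NF-Y box was the commoner feature. It stood in at least 1 promoter of all 14 synthesis enzymes that had an entry (Hmgcs1, Mvk, Pmvk, Mvd, Idi1, Lss, Cyp51, Tm7sf2, Msmo1, Nsdhl, Hsd17b7, Ebp, Sc5d and Dhcr7), against 42.9% of the 9517 genes tested on the array that had an entry and 41.1% of all 27025 genes of the table. By promoters rather than genes, it stood in 19 of the 30 promoters of the members, against 37.4% of all promoters. The Sp1 box stood in 13 of these 14 enzymes, all but Pmvk, against 66.8% of the genes tested on the array and 38.2% of all genes of the table. By promoters, it stood in 23 of the 30, against 35.7% of all promoters. In 13 of the 14 enzymes, all but Pmvk, an NF-Y box began within 100 bases before the start, which 26.0% of the genes tested on the array had. That window was chosen after the positions were seen. The motif matches are descriptions of letters and show no binding. A search for fixed letters in these windows also cannot show that a gene lacks a sterol response element. The box nearest upstream of the start is given below for the enzymes not printed above, as 45-base stretches on the strand of the gene, with the box in capitals. ATTGG is the same box read on the other strand.
Mvk, chr5:114444235-114444279, plus strand: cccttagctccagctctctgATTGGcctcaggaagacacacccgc
Pmvk, chr3:89454385-89454429, plus strand: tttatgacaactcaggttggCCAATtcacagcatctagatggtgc
Mvd, chr8:122443425-122443469, minus strand: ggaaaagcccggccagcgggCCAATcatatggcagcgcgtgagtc
Idi1, chr13:8885572-8885616, plus strand: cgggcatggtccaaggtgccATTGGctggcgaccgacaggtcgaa
Lss, chr10:76531523-76531567, plus strand: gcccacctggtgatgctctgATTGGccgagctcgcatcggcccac
Cyp51, chr5:4104702-4104746, minus strand: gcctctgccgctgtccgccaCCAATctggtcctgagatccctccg
Tm7sf2, chr19:6067873-6067917, minus strand: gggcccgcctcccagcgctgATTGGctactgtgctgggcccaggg
Msmo1, chr8:64733609-64733653, minus strand: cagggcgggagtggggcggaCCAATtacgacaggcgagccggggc
Nsdhl, chrX:72918481-72918525, plus strand: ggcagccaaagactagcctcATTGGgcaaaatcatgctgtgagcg
Hsd17b7, chr1:169969193-169969237, minus strand: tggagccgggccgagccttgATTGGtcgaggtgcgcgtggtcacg
Ebp, chrX:8193543-8193587, minus strand: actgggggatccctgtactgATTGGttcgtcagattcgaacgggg
Sc5d, chr9:42264300-42264344, minus strand: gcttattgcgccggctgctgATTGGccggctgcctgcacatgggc
Dhcr7, chr7:143830145-143830189, plus strand: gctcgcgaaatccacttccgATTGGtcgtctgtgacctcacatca

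**Figure D1:**
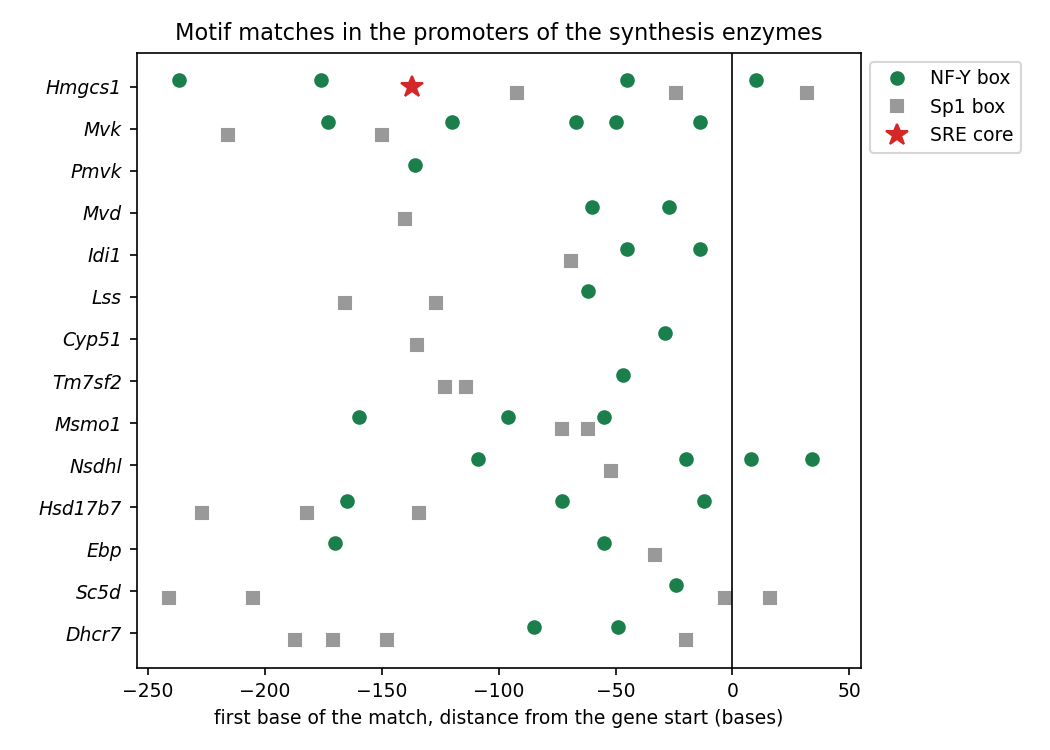
Positions of motif matches in the promoters of 14 cholesterol synthesis enzymes. The horizontal axis is the distance in bases of a match's first base from the gene start, green circles are NF-Y boxes, grey squares Sp1 boxes and the red star the sterol response core, which appears in Hmgcs1 alone. In 13 of the 14 rows a green circle lies within 100 bases left of the start.

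Dissection and quality set limits that touch several values below. The sclerotome and cartilage markers, which belong to the dorsal side, averaged 4.56 to 4.80 on ventral arrays and 5.66 to 6.71 on dorsal arrays, and all 12 were lower in ventral tissue. Markers of liver parenchyma, which belong to neither tissue, averaged 5.46 on ventral replicate 4 and 7.33 on dorsal replicate 4, against 3.11 to 3.24 on the other 6 arrays. Markers of red blood cells averaged 8.94 on dorsal replicate 4 and 7.26 to 7.50 on the other dorsal arrays. On ventral replicate 4 they averaged 8.03, against 7.22 to 7.61 on the other ventral arrays. Markers of spinal cord averaged 5.45 on dorsal replicate 1 and 3.35 to 3.66 on the other dorsal arrays. Macrophage markers averaged 4.55 to 5.07 on ventral arrays and 4.14 to 4.51 on dorsal arrays, with 15 of 15 higher in ventral tissue. Markers of steroid-making cells, which use cholesterol as their raw material, were near the array medians of 3.59 to 3.65 or under them, at 3.09 to 3.53 in ventral and 3.08 to 3.21 in dorsal tissue. The remaining marker means overlapped between ventral and dorsal arrays: smooth muscle (5.06 to 6.17, against 4.65 to 5.08), Schwann cells (3.76 to 4.68, against 3.67 to 5.07), endothelium (4.60 to 5.02, against 4.11 to 5.34), sympathoadrenal cells (4.34 to 6.51, against 4.32 to 4.65) and proliferation (7.31 to 7.84, against 7.33 to 7.78). Of these, smooth muscle markers were higher in ventral tissue by 0.75 on average, with 8 of 9 genes higher. Sympathoadrenal markers were higher there by 0.76, with 9 of 9 genes higher, beside 0.52 for macrophage markers. In such tissue samples, fewer cells of a type and less RNA per cell cannot be told apart.

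No gene of cholesterol synthesis or sterol control passed the test between ventral and dorsal tissue. Of the 26 genes, 21 exceeded the array median on at least 4 of 8 arrays and were tested among 12416 genes with limma, with the replicate number as a block. The other 5 (Idi1, Lss, Ebp, Insig2 and Nr1h3) were not tested. At an adjusted p under 0.05, limma called 0 of the 21 members and 0% of all genes tested. At an unadjusted p under 0.05, it called 0 of the 21 members, against 8.26% of all genes tested. The smallest adjusted p among the members was 0.622. Of the 21, 13 were higher and 8 lower in ventral tissue, with a median difference of 0.09 for the members and 0.00 over all genes tested. The members' differences ran from -0.34 (Fdps) to 0.64 (Fdft1).

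The intervals say how large a difference these arrays leave room for. In 20 of the 21 members the 95% interval of the difference lay within 2-fold in both directions, which held for 85.7% of all genes tested. The exception was Fdft1, whose interval reached 2.48-fold higher in ventral tissue. Standard errors of the members ran from 0.15 to 0.32 on the log2 scale, with a median of 0.20 beside 0.19 over all genes tested. In no tested member did the ventral and dorsal arrays fail to overlap, a state found in 4.39% of genes tested. A missed threshold does not show that the tissues are alike, and smaller differences than these intervals allow were not detectable with 4 arrays a tissue.

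**Figure D2:**
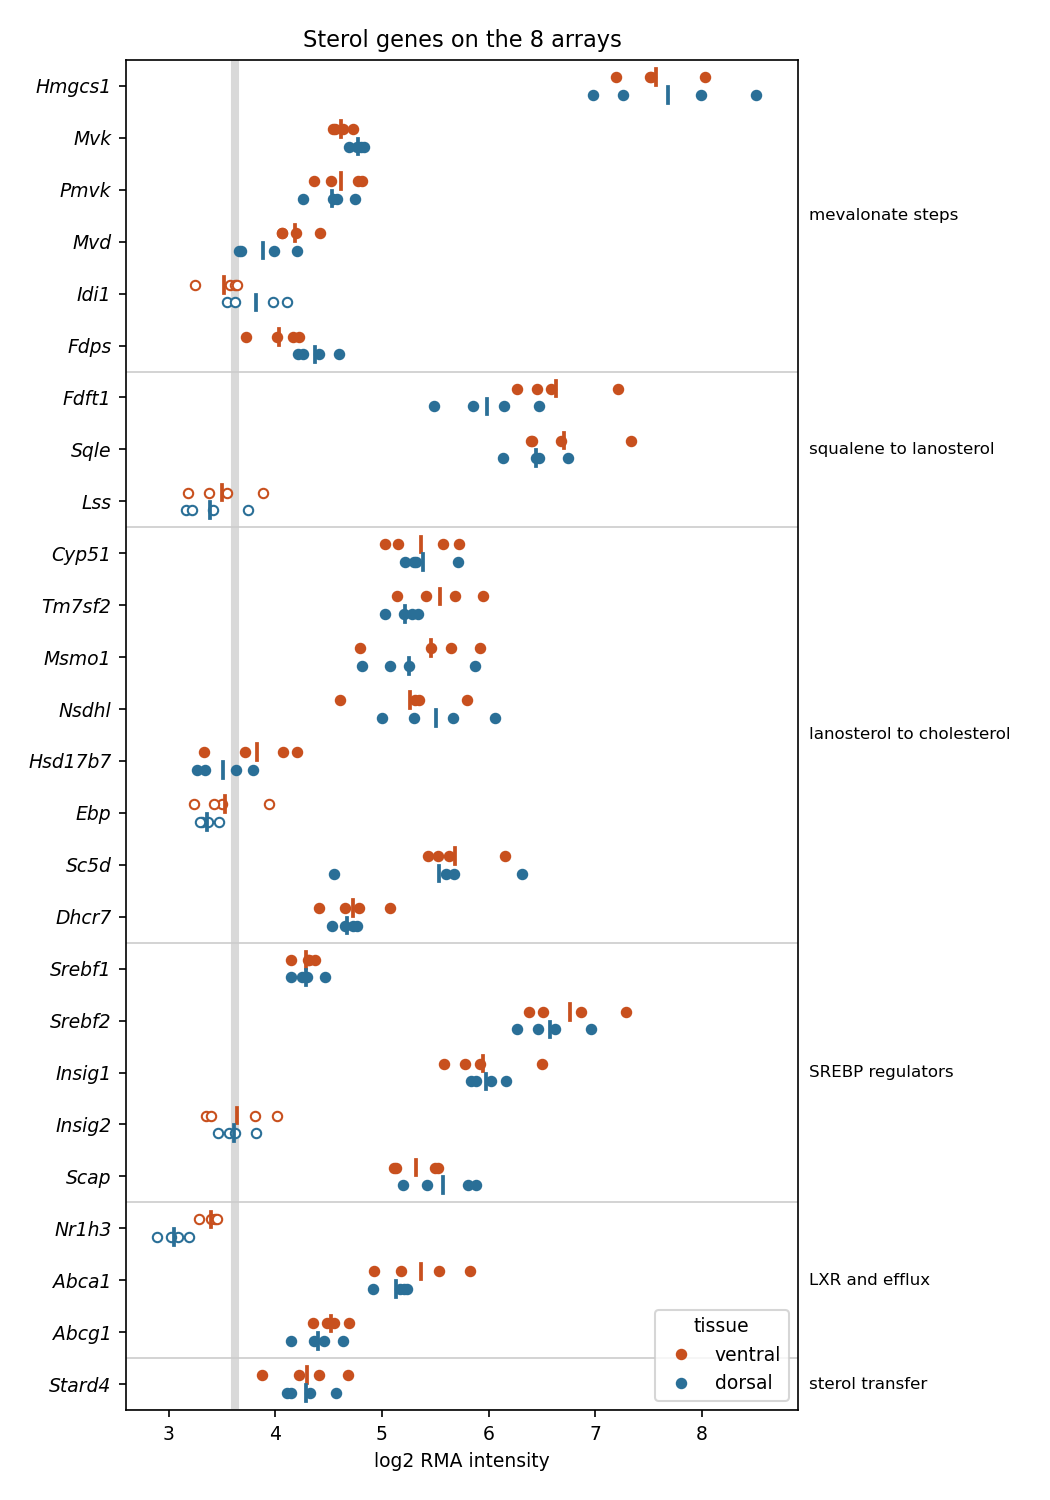
Log2 RMA intensity (horizontal axis) of the 26 genes, grouped by role, on 4 ventral arrays (orange, upper row of each gene) and 4 dorsal arrays (blue, lower row). Ticks are tissue means, the grey band spans the array medians, and open circles mark the 5 genes that were not tested. The rows of a gene overlap in all but Nr1h3, and genes are not to be compared with each other on this axis because probes respond differently.

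The enzymes that make and join isoprenoid units went both ways. Fdps, which builds farnesyl diphosphate, had 4.22, 4.02, 4.17 and 3.72 on ventral replicates 1 to 4, against 4.60, 4.22, 4.41 and 4.26 on dorsal replicates 1 to 4. It was lower in ventral tissue in 4 of 4 replicate numbers, but the highest ventral array reached the lowest dorsal one. The difference was -0.34 (SE 0.15, limma unadjusted p = 0.059, adjusted p = 0.622). Mvd, which makes isopentenyl diphosphate, had 4.20, 4.07, 4.06 and 4.41 on the ventral arrays and 3.66, 3.68, 3.99 and 4.20 on the dorsal arrays. It was higher in ventral tissue in 4 of 4 replicate numbers, with dorsal replicate 4 inside the ventral range (0.30, SE 0.15, limma unadjusted p = 0.0826, adjusted p = 0.671). With 1 replicate number left out, the difference of Mvd was 0.22 to 0.38 and limma's unadjusted p was 0.0762 to 0.257. Without the block and without dorsal replicate 4 it was 0.41 (limma unadjusted p = 0.0281), and for Fdps without the block and ventral replicate 1 it was -0.40 (limma unadjusted p = 0.0441).

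Hmgcs1, which makes HMG-CoA from acetyl units, spread more between arrays than between tissues. Its values were 7.53, 7.20, 7.52 and 8.03 in ventral tissue, against 8.50, 7.995, 6.98 and 7.26 in dorsal tissue. Ventral minus dorsal was negative in numbers 1 and 2 (-0.98 and -0.80) and positive in numbers 3 and 4 (0.54 and 0.77), for a mean of -0.12 (SE 0.32). Without replicate number 1 the difference turned to 0.17. Mvk, the first kinase of the path, varied least of all enzymes tested here, with 4.62 ± 0.08 in ventral and 4.77 ± 0.06 in dorsal tissue (SD, n = 4). It was lower in ventral tissue in 4 of 4 replicate numbers, by -0.16 (SE 0.16). Pmvk, the next kinase, averaged 4.62 ± 0.22 in ventral and 4.53 ± 0.20 in dorsal tissue (SD, n = 4). Idi1, the isomerase that makes the activated unit, lay above the array median on 3 of 8 arrays, and averaged 3.52 in ventral and 3.81 in dorsal tissue.

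Fdft1 had the widest gap of the members. This enzyme, squalene synthase, makes the first compound committed to sterols. Its values were 6.58, 7.21, 6.27 and 6.45 in ventral tissue, against 6.47, 5.49, 5.86 and 6.14 in dorsal tissue. Ventral was higher in 4 of 4 replicate numbers, by 0.11, 1.72, 0.41 and 0.31, while dorsal replicate 1 lay above 2 ventral arrays. The difference was 0.64, or 1.56-fold (SE 0.29, limma unadjusted p = 0.0604, adjusted p = 0.623). Number 2 carried much of it: without that number the difference was 0.28, and without one of the others it was 0.71 to 0.81. Without number 1 limma gave Fdft1 an unadjusted p of 0.0395. Without the block limma gave Fdft1 an unadjusted p of 0.0367 (adjusted p = 0.59), making it 1 of 21 members at an unadjusted p under 0.05, against 7.99% of all genes tested.

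Sqle, squalene epoxidase, follows Fdft1 and had 6.67, 6.39, 6.41 and 7.34 in ventral tissue, against 6.75, 6.13, 6.47 and 6.44 in dorsal tissue. Its values overlapped except for ventral replicate 4, which stood above all others (0.26, SE 0.21). Without replicate number 4 the difference of Sqle was 0.04. Lss, which folds the product into lanosterol, was above the array median on 2 of 8 arrays, with means of 3.50 in ventral and 3.38 in dorsal tissue.

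The enzymes that turn lanosterol into cholesterol gave 5 differences above 0 and 2 below, and none passed. Tm7sf2, a sterol reductase, had 5.14, 5.41, 5.68 and 5.95 in ventral tissue, against 5.02, 5.28, 5.21 and 5.33 in dorsal tissue. It was higher in ventral tissue in 4 of 4 replicate numbers, by 0.12 and 0.13 in numbers 1 and 2 and by 0.48 and 0.62 in numbers 3 and 4 (mean 0.34, SE 0.19, limma unadjusted p = 0.112, adjusted p = 0.718). Without the block and ventral replicate 1 it was 0.47 (limma unadjusted p = 0.0371), and it was 0.24 without number 4. Hsd17b7, a ketone reductase that acts in the removal of methyl groups, had 3.71, 4.20, 3.33 and 4.07 in ventral tissue, against 3.34, 3.63, 3.79 and 3.27 in dorsal tissue. These values straddled the array medians, and number 3 ran against the others (0.32, SE 0.21, limma unadjusted p = 0.177, adjusted p = 0.771). Without that number, singled out after its values were seen, it was 0.58 (limma unadjusted p = 0.0129). Without one of the other numbers it was 0.16 to 0.31 (limma unadjusted p = 0.286 to 0.518).

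Msmo1, the methyl oxidase of the same step, had 4.80, 5.46, 5.64 and 5.92 in ventral tissue, against 5.87, 4.81, 5.07 and 5.25 in dorsal tissue. Number 1 stood against the rest, at -1.08 beside 0.65, 0.57 and 0.67 in numbers 2 to 4. The dorsal array of number 1 was the one with the highest mean of the spinal cord list. Without number 1 the difference of Msmo1 was 0.63 (limma unadjusted p = 0.0203), against 0.20 with all arrays (SE 0.32). That number was singled out after its values were seen, and without number 2, 3 or 4 the difference was 0.05, 0.08 and 0.05 (limma unadjusted p = 0.845 to 0.904). Nsdhl, which works with Msmo1 and Hsd17b7, averaged 5.26 ± 0.49 in ventral and 5.50 ± 0.46 in dorsal tissue (SD, n = 4). Sc5d, a desaturase near the end of the path, averaged 5.69 ± 0.32 in ventral and 5.54 ± 0.73 in dorsal tissue (SD, n = 4), with dorsal replicate 1 at 4.55 and dorsal replicate 4 at 6.31. Without number 1 its difference was -0.12, against 0.15 with all arrays. Dhcr7, which makes cholesterol in the last step of one branch, averaged 4.73 ± 0.28 in ventral and 4.67 ± 0.11 in dorsal tissue (SD, n = 4), with a difference of 0.06 (SE 0.20). Ebp, a sterol isomerase, was above the array median on 1 of 8 arrays, with means of 3.52 in ventral and 3.36 in dorsal tissue.

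**Figure D3:**
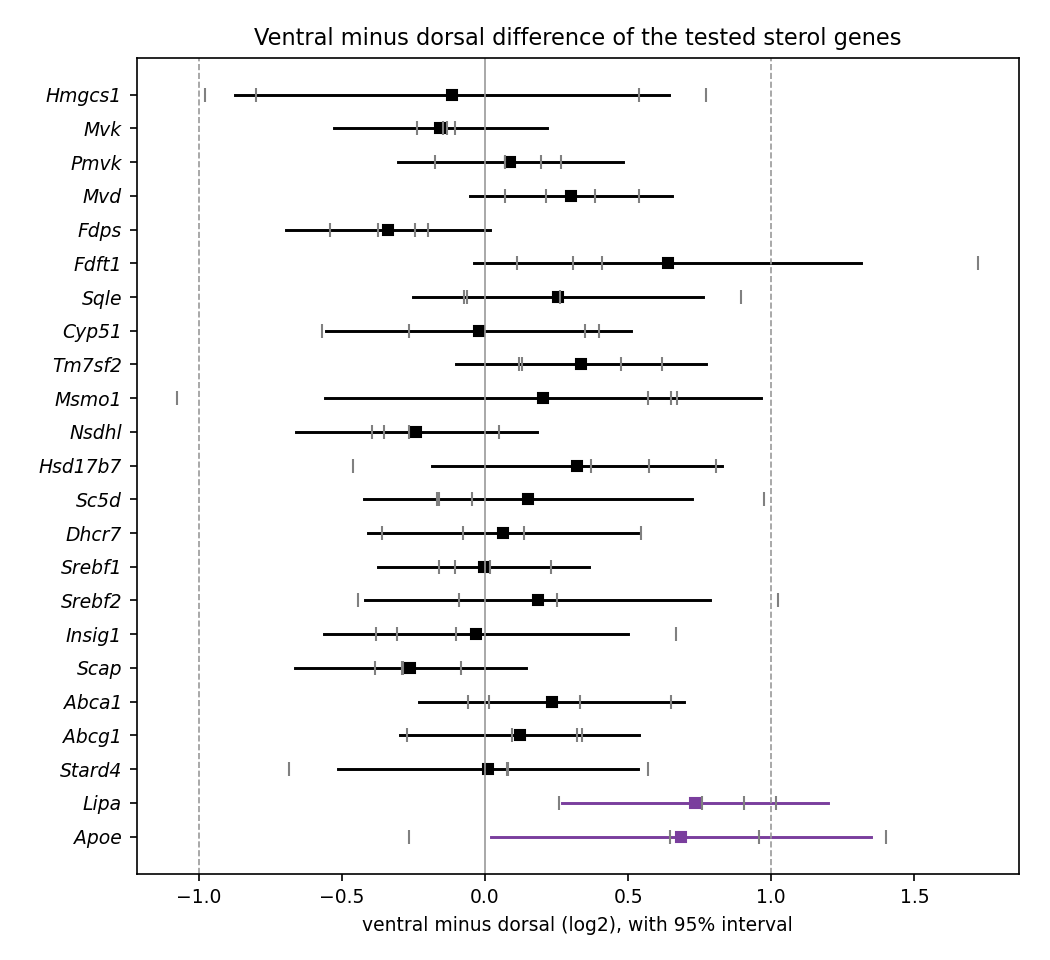
Ventral minus dorsal difference (horizontal axis, log2) of the 21 tested members in black, and of Lipa and Apoe in purple. Squares are mean differences, bars 95% intervals from limma with the replicate number as a block, and grey ticks the 4 replicate numbers. Dashed lines mark 2-fold; all black bars cross 0, and only that of Fdft1 passes a dashed line.

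None of the 4 tested sensors of the pathway passed the test, and 1 was higher and 3 lower in ventral tissue. Srebf2, whose product drives the cholesterol enzymes, had 6.51, 6.37, 6.87 and 7.29 in ventral tissue, against 6.96, 6.47, 6.62 and 6.27 in dorsal tissue. As for Hmgcs1, ventral was below dorsal in numbers 1 and 2 and above it in numbers 3 and 4 (0.18, SE 0.26, limma unadjusted p = 0.493, adjusted p = 0.904). Without replicate number 4, the pair with liver markers, the difference of Srebf2 turned to -0.10. Srebf1, whose product acts more on fatty acid genes, averaged 4.29 ± 0.10 in ventral and 4.29 ± 0.14 in dorsal tissue (SD, n = 4), and its interval ran from 0.773-fold to 1.29-fold.

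Scap, the SREBP escort, had 5.13, 5.11, 5.50 and 5.52 in ventral tissue, against 5.42, 5.19, 5.88 and 5.81 in dorsal tissue. It was lower in ventral tissue in 4 of 4 replicate numbers, by -0.29, -0.08, -0.38 and -0.29, though the tissues overlapped (mean -0.26, SE 0.17, limma unadjusted p = 0.171, adjusted p = 0.766). Such an equal sign in all numbers was shared by 6 of the 21 members, 3 in each direction, and by 16.4% of all genes tested. The protein of Insig1 is a brake that holds Scap back when sterol is high, and the gene is itself a target of SREBP. Insig1 had 5.58, 5.92, 5.78 and 6.50 in ventral tissue, against 5.88, 6.02, 6.16 and 5.84 in dorsal tissue. Its ventral replicate 4 was the highest array, while the other 3 numbers were lower in ventral tissue (-0.03, SE 0.23). Insig2, the second brake, was above the array median on 3 of 8 arrays, with means of 3.64 in ventral and 3.62 in dorsal tissue.

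On the export side, the liver X receptor gene Nr1h3 was the only member whose tissues did not overlap, but it was weakly detected. It had 3.43, 3.40, 3.29 and 3.46 in ventral tissue, against 3.19, 2.89, 3.09 and 3.02 in dorsal tissue. All 8 values lay under the array medians, so it was not tested in the main fit, and background limits the size of the difference. That makes 1 of the 26 members without overlap, against 3.64% of all named rows. With no filter limma gave it a difference of 0.35 with an unadjusted p of 0.0198 (adjusted p = 0.703). Macrophages express this receptor, and their markers were higher in ventral tissue as given above; their part in this difference was not tested.

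The exporters themselves differed less. Abca1, which loads cholesterol onto apolipoproteins, had 5.54, 5.82, 5.18 and 4.93 in ventral tissue, against 5.21, 5.17, 5.24 and 4.91 in dorsal tissue. Ventral replicates 1 and 2 stood above all dorsal arrays and the other ventral arrays did not (0.23, SE 0.20, limma unadjusted p = 0.273, adjusted p = 0.817). Without number 2 the difference of Abca1 was 0.09. The same 2 arrays had the highest macrophage marker means, 5.07 and 4.92, and the part of these cells was not tested. Abcg1, which exports sterol to larger particles, had 4.69, 4.55, 4.36 and 4.48 in ventral tissue, against 4.37, 4.45, 4.63 and 4.14 in dorsal tissue (0.12, SE 0.18). Stard4, which carries sterol through the cytosol, had 4.68, 3.88, 4.41 and 4.23 in ventral tissue, against 4.11, 4.56, 4.33 and 4.15 in dorsal tissue. The highest and the lowest of its 8 values were both ventral, and the mean difference was 0.01 (SE 0.22).

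Variation between arrays of the same tissue was wider than between tissues for several members. Ventral replicate 4 held the highest ventral value for 9 of the 14 tested enzymes, and for Srebf2 and Insig1, where 25.4% of all genes tested were highest on that array. The mean of the 14 enzymes was 5.53 on that array and 5.21 to 5.24 on the other ventral arrays. On the dorsal side the enzymes were highest on replicate 1 in 7 cases and on replicate 4 in 6, beside 24.7% and 27.4% of all genes tested. These 3 arrays are those whose liver or spinal cord list mean stood apart from the other arrays of their tissue. Proliferation markers averaged 7.84 on ventral replicate 4 and 7.31 to 7.45 on the other ventral arrays. On dorsal replicate 1 they averaged 7.33, the lowest dorsal mean, and on dorsal replicate 4 they averaged 7.68. The part of proliferation, or of the cells behind these list means, in the enzyme values was not tested. These arrays were picked out after their values were seen.

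From array to array, the enzymes correlated with each other about as often as all tested genes did, except without replicate number 1. After subtraction of tissue means, the median correlation over the 91 pairs of the 14 enzymes was 0.08 over 8 arrays, beside 0.00 over all pairs of tested genes. Of the 91 pairs, 15.4% were above 0.5, beside 13.4% of all pairs. Without replicate number 1 the median was 0.22 and 41.8% of the enzyme pairs were above 0.5, beside 20.2% of all pairs. Without number 2, 3 or 4 the share was 20.9%, 20.9% and 17.6%, beside 20.2%, 20% and 20.2% of all pairs. With the replicate block removed too, the median over 8 arrays was -0.13 and the share 24.2%, beside 25.3% of all pairs. Members of 1 array share its RNA and its scaling, so these correlations are descriptions. The highest correlation among the 21 members was that of Srebf2 with Cyp51, which removes the first methyl group of lanosterol, at r = 0.90. Cyp51 had 5.15, 5.03, 5.57 and 5.72 in ventral tissue, against 5.72, 5.30, 5.22 and 5.32 in dorsal tissue. It followed Hmgcs1 and Srebf2 in being lower in ventral tissue in numbers 1 and 2 and higher in numbers 3 and 4 (-0.02, SE 0.23). Srebf2 also ran with Sqle (r = 0.76), Msmo1 (r = 0.71), Hmgcs1 (r = 0.66) and Insig1 (r = 0.61), pairs that were picked after all values were seen. It ran against Dhcr7 (r = -0.77), and its median r over the 14 enzymes was 0.23, with 8 above 0. Abca1 ran the other way to most enzymes, with a median r of -0.48 over the 14. Its r was above 0 with 4 of them, Dhcr7 (0.80), Fdft1 (0.50), Fdps (0.49) and Hsd17b7 (0.36). That median was the lowest of the 21 members, and no value over all genes stands beside it. On ventral replicate 4 Abca1 deviated by -0.44 from its tissue mean and the enzymes by 0.23 on average. On ventral replicate 2 these deviations were 0.46 and -0.09.

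**Figure D4:**
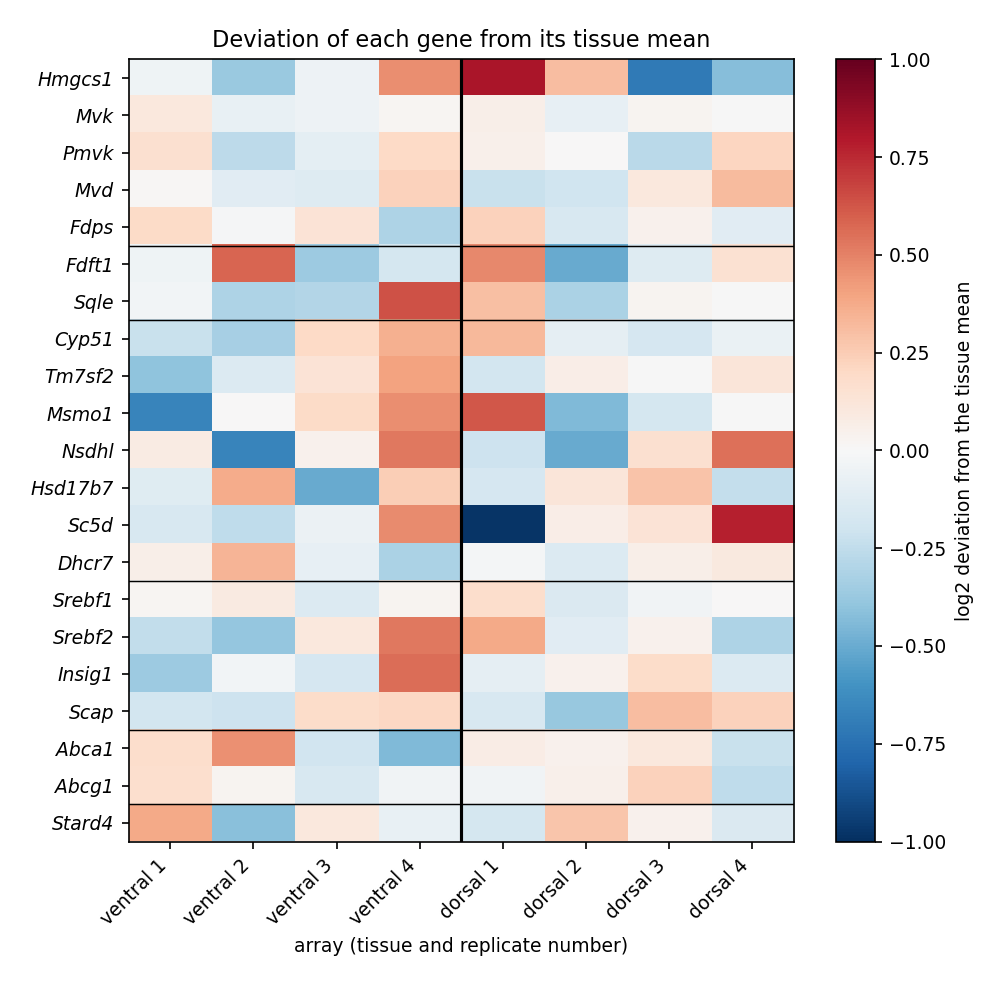
Deviation of each of the 21 tested members (rows, by role) from its own tissue mean, in log2 units, on the 4 ventral arrays (left of the line) and the 4 dorsal arrays (right). Red is above and blue below the tissue mean. Ventral replicate 4 is red for most enzymes and for Srebf2 and Insig1, and dorsal replicate 1 is red for Hmgcs1, Msmo1, Fdft1 and Srebf2 but blue for Sc5d.

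Of the wider pathway, 42 further genes were looked for, 35 were found and 29 were tested. At an unadjusted p under 0.05, limma called 2 of the 29, against 8.26% of all genes tested. After adjustment 0 passed. Both called genes were higher in ventral tissue, a call made for 4.08% of all genes tested, and 0 were lower. None of the 10 tested genes of fatty acid synthesis, which SREBP-1 drives, was among them, with 5 higher and 5 lower and differences from -0.29 to 0.47. None was called among the 6 tested genes of SREBP processing and lipoprotein uptake (1 higher, 5 lower) or the 2 further synthesis genes (both lower). One of the latter, Lbr, had the lowest difference of the 29, at -0.61 (SE 0.27, limma unadjusted p = 0.059, adjusted p = 0.622). Ventral minus dorsal of Lbr was -1.44, -0.62, 0.30 and -0.69 in numbers 1 to 4. The 2 called genes were Lipa and Apoe, from the 11 tested genes of sterol storage and transport. Of these 11, 7 were higher and 4 lower.

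Lipa, the lysosomal acid lipase that frees cholesterol from stored and ingested esters, had 5.46, 5.25, 5.71 and 5.40 in ventral tissue, against 4.55, 4.49, 4.69 and 5.14 in dorsal tissue. The tissues did not overlap, and ventral was higher in 4 of 4 replicate numbers. The difference was 0.74, or 1.66-fold (SE 0.20, limma unadjusted p = 0.0071, adjusted p = 0.357). Apoe, an apolipoprotein that accepts exported cholesterol, had 6.62, 6.36, 5.96 and 5.87 in ventral tissue, against 5.22, 5.41, 5.32 and 6.13 in dorsal tissue. Ventral was higher in 3 of 4 replicate numbers (0.68, SE 0.28, limma unadjusted p = 0.0445, adjusted p = 0.593). Dorsal replicate 4, the array with the most liver and red cell signal, was the highest dorsal array for both genes. Without replicate number 4 the differences were 0.89 for Lipa and 1.00 for Apoe, and without number 1 that of Apoe was 0.45 (limma unadjusted p = 0.165). Macrophages and liver express both genes. Macrophage markers were higher in ventral tissue by 0.52 on average, and their part in these differences was not tested.

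**Figure D5:**
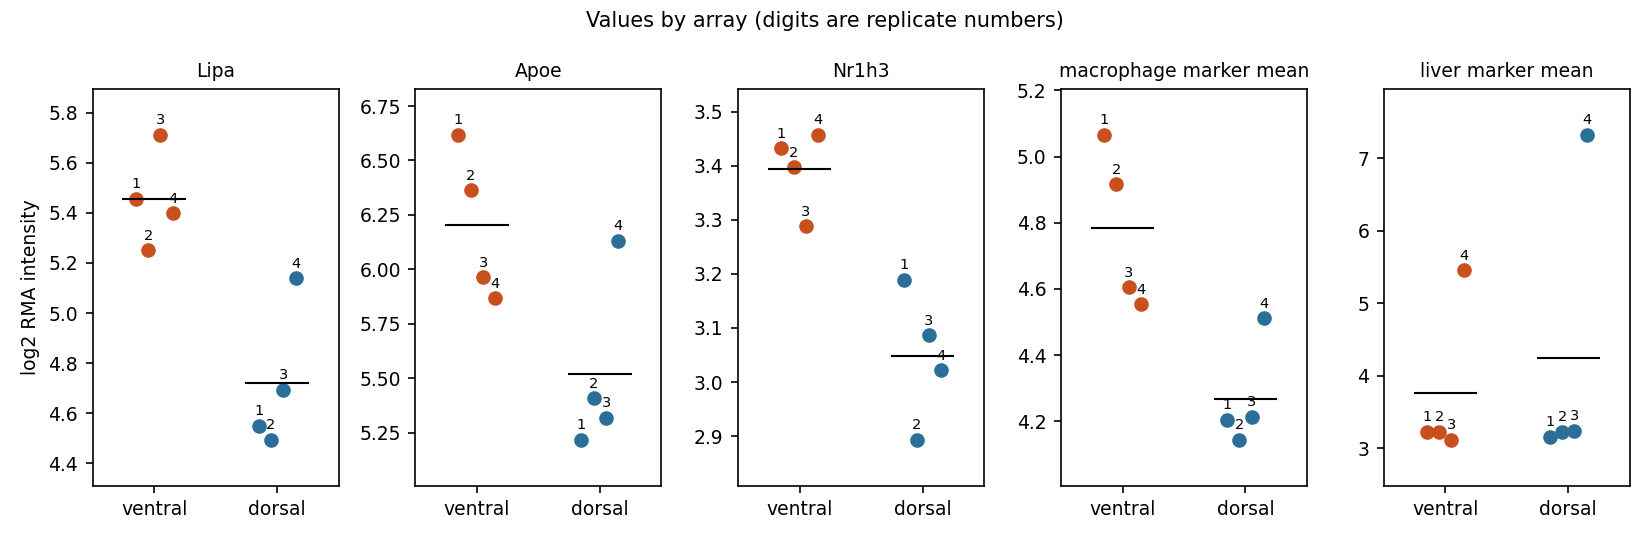
Log2 RMA intensity of Lipa, Apoe and Nr1h3 and the mean of 15 macrophage and 9 liver markers on the ventral (orange) and dorsal (blue) arrays, with digits for replicate numbers and lines for tissue means; each panel has its own vertical axis. Lipa and Nr1h3 do not overlap between tissues, and dorsal replicate 4 stands above the other dorsal arrays for Lipa, Apoe and both marker means.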

How the data were processed

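Total RNA of 200 to 1000 pg was amplified before labelling, per the labels' protocols. The authors deposited log2 intensities, made with Affymetrix Expression Console and RMA, per the submitters' processing notes (versions not given in the sources used here). RMA equalises arrays, so total RNA per array is not measured. Of 25429 rows, 24675 had 1 symbol in the platform table, 0 several and 754 none; the last were not used. The 12416 genes that exceeded the median of their array 4 times or more were fitted with limma 3.58.1 in R 4.3.3 (trend and robust estimation, replicate number as a fixed block, two-sided, Benjamini-Hochberg adjustment over all genes, threshold 0.05). Named genes were set by rule: every member, with all array values for the 2 of each role with the smallest p, for Hmgcs1 and Nr1h3 (highest and lowest mean) and for any at an unadjusted p under 0.05 (none). Cyp51, Msmo1 and Insig1 were added after their values were seen. Pathway genes were named at an unadjusted p under 0.05, and Lbr was added after its values were seen. Marker lists cover 11 cell types. The members and lists were chosen with earlier results of these data known. Same-numbered arrays deviated together at r = 0.11, 0.03, 0.02 and 0.12, so 2 of 4 exceeded 0.1. Differently numbered arrays of the tissues ran from r = -0.126 to 0.102, so these values do not show whether numbers mark embryos. The block was kept because both tissues came from the same embryos. If numbers do not mark embryos, p-values measure only the spread between these samples. No scan date or slide was available to fit.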

Additional observations from a re-analysis of the deposited data

Results flagged for a closer look

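These 6 values stood apart from the other 3 arrays of their tissue by Dixon's criterion for groups of 4, among 78 groups examined; chance alone marks about 1 in 20 groups. Idi1 stood at 3.24 on ventral replicate 1 and at 3.58 to 3.64 on the other ventral arrays, all near or under the array medians. The liver marker mean was 5.46 on ventral replicate 4 and 3.11 to 3.23 on the other ventral arrays. It was 7.33 on dorsal replicate 4 and 3.16 to 3.24 on the other dorsal arrays. The red cell marker mean was 8.94 on dorsal replicate 4 and 7.26 to 7.50 on the others. The spinal cord marker mean was 5.45 on dorsal replicate 1 and 3.35 to 3.66 on the others. The sympathoadrenal marker mean was 4.32 on dorsal replicate 3 and 4.62 to 4.65 on the others.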

How the results depend on the processing

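No member passed an adjusted p under 0.05 in any of the 19 alternatives. The count at an unadjusted p under 0.05 was 0 with the block, against 8.26% of all genes tested. It was 1 with no replicate block, against 7.99% of all genes tested. It was 1 with a random replicate block, 1 with no filter, and 0 to 2 with 1 number or array left out. For these last settings the share over all genes was not counted. Fdft1 was the gene without the block, and Nr1h3 with no filter. The median enzyme difference of 0.12 ranged from 0.03 to 0.19 with 1 number or array left out. The median enzyme correlation of 0.08 ranged from 0.01 to 0.22 with 1 number left out, and was -0.13 with the replicate block removed too. Differences near 0 changed sign. With array weights Cyp51 was 0.0049. With 1 number or array left out, Hmgcs1 ranged from -0.41 to 0.17, Pmvk from -0.0016 to 0.18, Cyp51 from -0.16 to 0.16, Sc5d from -0.18 to 0.41, Dhcr7 from -0.10 to 0.20, Srebf1 from -0.082 to 0.0562, Srebf2 from -0.10 to 0.39, Insig1 from -0.26 to 0.0925 and Stard4 from -0.18 to 0.24. Among untested genes, with 1 number left out, Lss ranged from -0.09 to 0.34, Insig2 from -0.11 to 0.19 and Ebp from 0.0024 to 0.24. Abca1 ranged from 0.08 to 0.38 and Abcg1 from 0.04 to 0.25 without a change of sign. Lipa stayed at an unadjusted p under 0.05 in all 18 alternatives that tested it (differences 0.64 to 0.89; it was not tested with the stricter filter), and Apoe lost it in 8 (0.45 to 1.00). The causes were not tested. The number of arrays limits precision.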
